A study of Mus musculus with 12 samples.

Results

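Female livers of AAV9-CSA-treated mice were compared between 2 genotype groups, 3 livers labelled KO (KO_F_108, KO_F_112 and KO_F_123) and 3 labelled Het (Het_F_111, Het_F_115 and Het_F_126, the order used for all values below), out of 12 livers in all. The members were chosen by sex and genotype in the labels, and the comparison covered the 18308 of 57180 genes that had at least 5 reads, scaled to the median library size, in 3 or more of these 6 livers. Every mouse in both groups lacked Csa, listed in the annotation as Ercc8, and had been injected into the brain ventricles as a newborn with AAV9-CSA, a vector that carries a human CSA cDNA under the chicken β-actin promoter. The study calls the KO animals CX mice and collected them when they met its humane endpoint, and Het animals were treated littermates of matched age. Ages are not in the labels used here. The labels write KO as Csa-/-;Xpa+/+ and Het as Csa-/-;Xpa+/-, whereas the study describes CX mice as lacking Xpa as well, so the groups are named KO and Het and Xpa was examined first. Each liver is from 1 mouse, and its total RNA, cleared of ribosomal RNA, was sequenced with strand information.

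CSA and XPA both act in nucleotide excision repair, the pathway that cuts bulky lesions out of DNA. CSA is needed where a lesion stalls a transcribing polymerase, and XPA checks the damage in both branches of the pathway. Mice with severe repair defects are known for changed growth hormone signaling, lipid handling and antioxidant defence in the liver, and hepatocytes also show strong sex differences that follow the pattern of growth hormone release. The genes below are grouped by lipid metabolism, stress defence, inflammation, resident cell types and sex-biased expression. The gene lists were chosen with earlier results of these data known, so their shares of calls describe the lists and are no independent support.

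The 6 female libraries held between 31504723 and 43634046 estimated counts. The 4 Y-linked genes examined reached at most 1 count in any of them and Xist was between 1014 and 1468 CPM (counts per 1000000 reads, after scaling), so all 6 libraries carried female transcripts. On the first principal component, with 57.5% of the variance in log2 CPM, the Het livers lay between -42.9 and -30.7 and the KO livers at 63.1, 34.02 and 11.7. The second component (14.2%) separated the Het livers from each other, and Het_F_115 stood apart from Het_F_111 and Het_F_126 in clock genes. For the clock genes Bmal1 and Dbp, all KO livers lay between Het_F_115 and those other Het livers. The study's methods do not give the time of day of collection, and its part in the values below was not tested. Bmal1, a core clock activator, was at 1.51, 28.2 and 1.59 CPM in the Het livers and 17.9, 13.7 and 12.6 CPM in the KO livers, and the clock output gene Dbp was at 81.9, 0.775 and 113 CPM in the Het livers and 15.5, 12.2 and 18.9 CPM in the KO livers. All 10 hepatocyte markers were expressed and none was called, with Alb at 53722, 59763 and 50415 CPM in the Het livers and 55902, 109880.0 and 58817 CPM in the KO livers. KO_F_112 had the highest share of its counts in its top 20 genes (37.5%, against 31.3% to 34.6% in the other female livers) and the lowest TMM scaling factor (0.875).

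Xpa, on chromosome 4 (chr4:46154887-46196600, GRCm39), was lower in every KO liver, with 3.13, 3.59 and 3.77 CPM in the Het livers and 1.09, 1.85 and 0.995 CPM in the KO livers. The difference (log2 fold change -1.38 ± 0.29 SE, adjusted p = 0.0531, edgeR) missed the threshold of 0.05 in the 6-liver fit and passed it when all 12 livers shared 1 fit (adjusted p = 0.00542), and over all alternatives tried, DESeq2 and limma included, the adjusted p was between 0.000811 and 0.138. Xpa was thus lower in the group that the labels write as Xpa+/+ and the study describes as lacking Xpa. Xpa reads remained in all 3 KO livers. Ercc8 (chr13:108295233-108331898) was present in every liver, at 8.77, 8.66 and 5.14 CPM in the Het livers and 34.3, 34.2 and 20.1 CPM in the KO livers, and was called higher (log2 fold change 1.97 ± 0.29 SE, adjusted p = 0.0273). The counts do not show which part of either transcript the reads came from, so neither gene can settle the genotype. Ercc8 was also the single one of 28 nucleotide excision repair genes called in females, and the median log2 fold change of these 28 was -0.01.

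Of the 18308 genes, 293 were called higher in KO females (1.6%) and 192 lower (1.05%) at a Benjamini-Hochberg adjusted p under 0.05 in edgeR's quasi-likelihood test, to which all adjusted p-values below refer. Among these 485 calls, 269 rises and 174 falls were larger than 1 on the log2 scale, and 240 rises and 164 falls were in protein-coding genes. At an unadjusted p under 0.05 the count was 4390. Rises made up 60.4% of the calls, against 38.7% of the 506 calls by limma on log2(TPM + 1) and 41.0% of the 600 calls by limma on log2(TPM + 0.1). All 485 called genes had KO and Het livers that did not overlap, as did 15.6% of all tested genes in the upward and 15.3% in the downward direction. KO_F_108 showed the largest change, with the highest of the 3 KO values in 157 of the 293 rises and the lowest in 139 of the 192 falls. The number of calls changed when 1 liver was left out, which also leaves fewer livers in the fit. Without KO_F_112 there were 16 calls, and without Het_F_126, Het_F_111 or KO_F_108 there were 57, 63 and 114. Without Het_F_115 there were 64 rises and 54 falls. Without KO_F_123 there were 595. The same 11 genes were called in each of the 6 fits that left 1 liver out: Ccdc120, Chil3, Dnah1, Gm3776, Gsta1, Itih5, Lpl, Pls1, Scara5, Tes and Tmprss4, of which Itih5, Pls1 and Tmprss4 are named for this count and after their values were seen. All 417 called genes that passed the filter in each of those fits kept their direction.

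**Figure D1:**
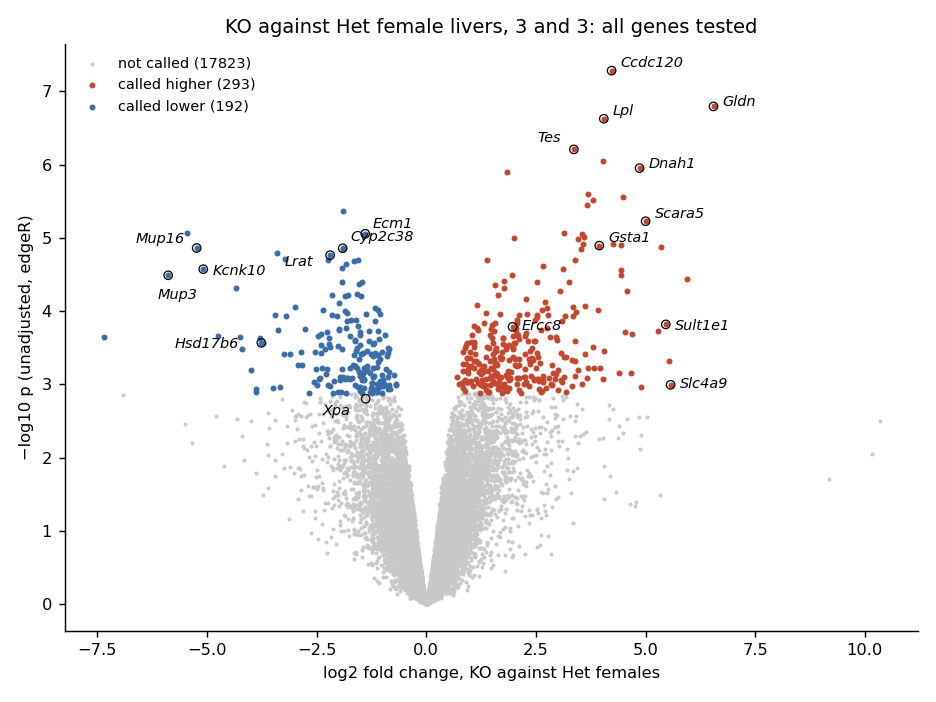
Each point is 1 of 18308 genes, with its KO against Het log2 fold change in females on the x axis and -log10 of the unadjusted p on the y axis; red points are the 293 genes called higher and blue points the 192 called lower, and circled genes are named. Rises reach 6.55 (Gldn) and Xpa lies just under the level of the calls.

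Genes that burn fatty acids were mostly lower in KO females. Of 35 genes of fatty acid oxidation and ketogenesis, 32 had a negative fold change, 5 were called lower (14.3% of the list, against 1.05% of all genes) and none was called higher, with a list median of -0.79 against a median of -0.00259 over all genes tested. All KO livers were under all Het livers in 27 of the 35 (77.1% against 15.3% of all genes) and above them in 1 (2.86% against 15.6%). Ppara, the nuclear receptor that switches on these genes in fasting, was at 243, 130.4 and 220.4 CPM in the Het livers and 60.5, 94.2 and 53.2 CPM in the KO livers (log2 fold change -1.51 ± 0.30 SE, adjusted p = 0.0481). Acsl1, which activates long-chain fatty acids, was at 1238, 1117 and 976 CPM in the Het livers and 223, 491 and 424 CPM in the KO livers (log2 fold change -1.55 ± 0.30 SE, adjusted p = 0.0450). For both genes the highest KO liver was KO_F_112, and it stayed under the lowest Het liver. Acat1, a mitochondrial thiolase of ketone metabolism, was at 536, 375 and 348 CPM in the Het livers and 99.9, 156 and 186 CPM in the KO livers (log2 fold change -1.51 ± 0.28 SE, adjusted p = 0.0417), and Crat, the carnitine acetyltransferase, at 61.0, 77.4 and 38.5 CPM in the Het livers and 18.0, 18.8 and 22.5 CPM in the KO livers (log2 fold change -1.57 ± 0.26 SE, adjusted p = 0.0305). Neither gene overlapped between the groups, and the CPM range was wider among Het than among KO livers. Fgf21, a fasting hormone that Ppara induces, was low in all livers and lower in KO, at 2.16, 3.33 and 0.914 CPM in the Het livers and 0.156, 0.282 and 0.161 CPM in the KO livers (log2 fold change -3.11 ± 0.52 SE, adjusted p = 0.0319). Cpt1a, the entry step of mitochondrial oxidation, overlapped (log2 fold change 0.02 ± 0.29 SE, adjusted p = 0.978). In the fit of 12 livers, where 5.71% of all genes were called higher and 5.61% lower in females, 20 of the 35 were called lower. Without Het_F_111, Het_F_115 or KO_F_112 none of the 35 was called, and without any other single liver 1 to 3 were called lower. Without KO_F_123, 1 was called higher as well.

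Other lipid genes moved in both directions. Lpl, the lipase that releases fatty acids from circulating lipoproteins and is low in normal adult liver, was at 10.7, 12.9 and 16.2 CPM in the Het livers and 195, 199 and 268 CPM in the KO livers, with a wide gap between the groups (log2 fold change 4.05 ± 0.24 SE, adjusted p = 0.00145). Lipc, the hepatic lipase made by hepatocytes, went the other way, at 183, 160.2 and 152 CPM in the Het livers and 19.6, 33.1 and 61.7 CPM in the KO livers (log2 fold change -2.11 ± 0.39 SE, adjusted p = 0.0427). G0s2, an inhibitor of the triglyceride lipase ATGL, was at 49.5, 106 and 36.6 CPM in the Het livers and 1.25, 7.36 and 4.17 CPM in the KO livers (log2 fold change -3.89 ± 0.72 SE, adjusted p = 0.0492). The fall of G0s2 was strongest in KO_F_108 and the Het livers were spread around a high value in Het_F_115. Fabp2, an intestinal-type fatty acid binding protein, was at 45.7, 31.8 and 32.7 CPM in the Het livers and 6.28, 9.83 and 11.6 CPM in the KO livers (log2 fold change -1.99 ± 0.26 SE, adjusted p = 0.0209). These 4 were the called genes among 33 of lipid uptake, droplets and lipoproteins, and in all 4 the groups did not overlap. The shares were 3.03% called higher and 9.09% lower, against 1.6% and 1.05% of all genes. Lpl stayed called without any single liver, and no fall was called without Het_F_111, Het_F_126 or KO_F_112. Among 28 genes of fatty acid and triglyceride synthesis, 22 had a negative fold change (list median -0.80) and 1 was called, Me1, the malic enzyme that supplies NADPH, at 108.3, 118.2 and 105 CPM in the Het livers and 39.1, 26.5 and 51.3 CPM in the KO livers (log2 fold change -1.50 ± 0.24 SE, adjusted p = 0.0299). Srebf1, Fasn and Scd1, the defining members of that list, had log2 fold changes of -1.46 ± 0.39, -1.25 ± 0.38 and -1.88 ± 0.60, with adjusted p of 0.0880, 0.112 and 0.125. Peroxisomal genes were negative in 43 of 51 (median -0.40), with Pex6, an ATPase of peroxisome assembly, the single one called (log2 fold change -0.68 ± 0.13 SE, adjusted p = 0.0440), and 18 of them were called lower in the fit of 12 livers. None of 31 cholesterol synthesis and uptake genes was called.

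Small shifts ran through the large complexes without any call. Of 73 cytosolic ribosomal protein genes 70 had a positive fold change, and KO livers did not overlap Het livers upward in 50 of them, 68.5% against 15.6% of all genes. The median was 0.33 and none passed the test in 6 livers, while 12 were called higher in the fit of 12 livers. Rpl3, for example, was at 181, 193 and 212 CPM in the Het livers and 312, 286 and 253 CPM in the KO livers (log2 fold change 0.54 ± 0.16 SE, adjusted p = 0.109). Of 76 nuclear genes of oxidative phosphorylation 68 had a negative fold change and 27 were separated downward (35.5% against 15.3%), with a median of -0.21 and no call in 6 livers, while 7 were called lower in the fit of 12 livers. The 15 transcripts of the mitochondrial genome had a median of -0.02 and none was called.

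**Figure D2:**
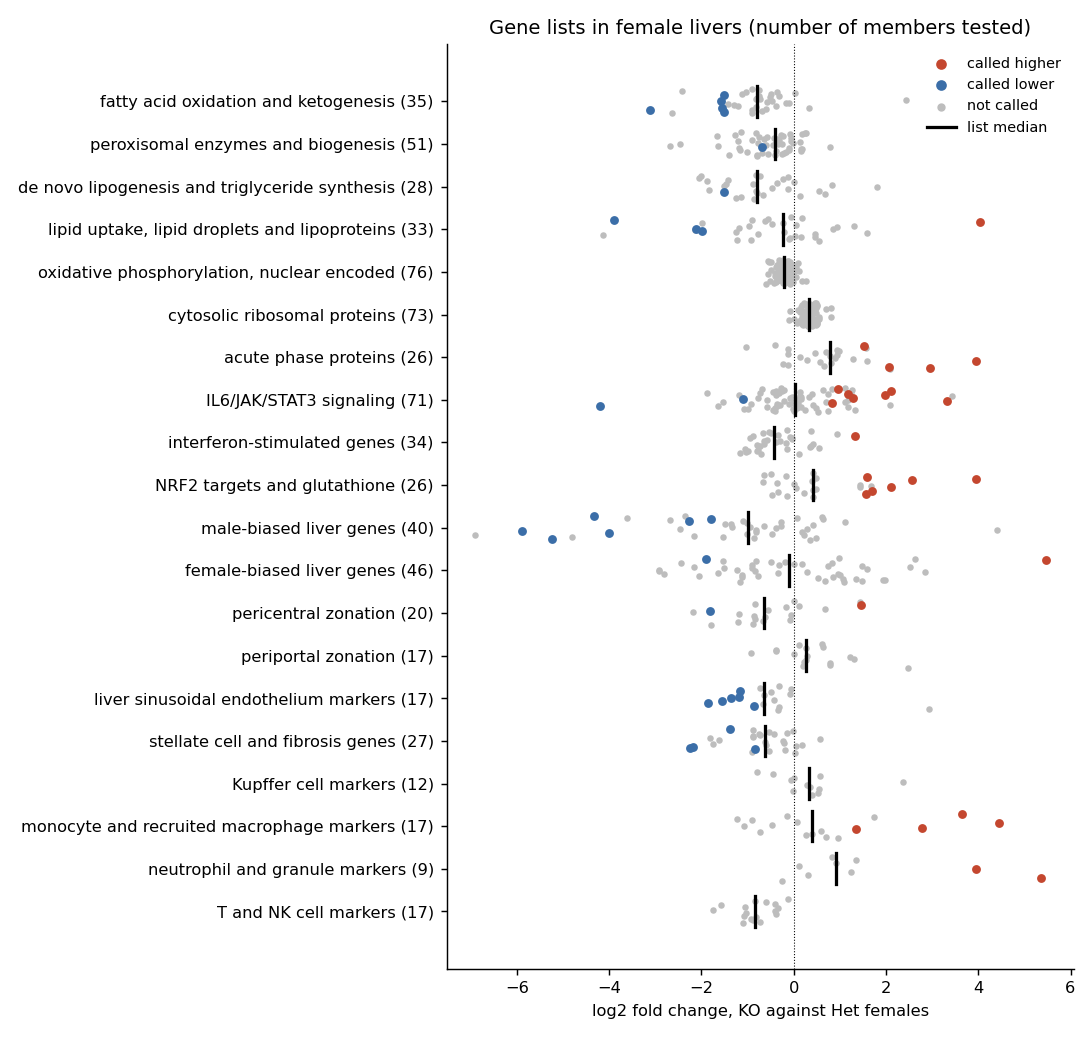
Each point is a gene of the list named on the y axis and its log2 fold change in KO against Het females is on the x axis, with called genes in red or blue, other genes in grey and the list median as a black bar; list sizes are in parentheses. Male-biased (median -0.98), T and NK cell (-0.84), lipogenesis (-0.80) and fatty acid oxidation (-0.79) genes lie furthest to the left. Endothelial (-0.64), pericentral (-0.64) and stellate cell (-0.63) genes follow. Neutrophil (0.91) and acute phase (0.79) genes lie furthest to the right, and the ribosomal protein genes form a tight group around 0.33. The neutrophil median covers the 9 of 17 markers that were tested, including Prtn3, which passed the read filter through the KO livers alone.

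Part of the antioxidant and detoxifying genes rose. Of 26 genes on a list of NRF2 targets and glutathione enzymes, 6 were called higher (23.1% against 1.6%) and none lower, with a median of 0.42. NRF2 is the transcription factor that induces these genes under oxidative or electrophilic stress. Nqo1, a quinone reductase and a standard readout of NRF2, was at 11.7, 11.8 and 11.1 CPM in the Het livers and 25.9, 36.3 and 41.0 CPM in the KO livers (log2 fold change 1.57 ± 0.19 SE, adjusted p = 0.0151). Hmox1, which degrades heme, was at 10.05, 19.3 and 13.7 CPM in the Het livers and 83.9, 59.9 and 42.6 CPM in the KO livers (log2 fold change 2.11 ± 0.32 SE, adjusted p = 0.0284). Both were higher in each KO liver than in any Het liver, and the highest KO liver was KO_F_123 for Nqo1 and KO_F_108 for Hmox1. Gsta1, an alpha class glutathione transferase, had the largest rise of the list, with 1.37, 0.930 and 0.501 CPM in the Het livers and 13.3, 11.6 and 20.2 CPM in the KO livers (log2 fold change 3.94 ± 0.40 SE, adjusted p = 0.00898), and its paralog Gsta2 was at 31.8, 23.3 and 17.0 CPM in the Het livers and 53.6, 93.2 and 87.3 CPM in the KO livers (log2 fold change 1.70 ± 0.29 SE, adjusted p = 0.0336). The predicted gene Gm3776, also on chromosome 9, followed the Gsta1 values at 0.712, 0.956 and 0.719 CPM in the Het livers and 11.5, 11.1 and 18.5 CPM in the KO livers (log2 fold change 4.02 ± 0.28 SE, adjusted p = 0.00325). Reads of such close relatives may be shared between them, so their separate values are uncertain. The exporter Abcc4 (log2 fold change 1.59 ± 0.26 SE, adjusted p = 0.0305) and the peroxidase Gpx2, a very low transcript here (log2 fold change 2.55 ± 0.46 SE, adjusted p = 0.0332), completed the 6. Leaving out 1 liver left 1 call (without Het_F_111, Het_F_126 or KO_F_112), 3 calls (without Het_F_115 or KO_F_108) or 4 calls (without KO_F_123). Of 25 p53 target genes 16 had a negative and 9 a positive fold change (median -0.33), and 1 was called higher (4% against 1.6% of all genes). The called gene was Sesn1, a stress sensor that restrains mTORC1 (log2 fold change 1.47 ± 0.26 SE, adjusted p = 0.0379). Cdkn1a, the cell cycle inhibitor that p53 induces, overlapped between the groups and was highest in Het_F_115, at 4.81, 109.6 and 2.13 CPM in the Het livers and 50.6, 45.5 and 35.3 CPM in the KO livers. Ddit4, another inhibitor of mTORC1 that glucocorticoids and stress induce, was at 9.08, 11.1 and 3.16 CPM in the Het livers and 272, 182 and 88.2 CPM in the KO livers (log2 fold change 4.53 ± 0.62 SE, adjusted p = 0.0277). Neither the 26 chaperones and unfolded protein response genes nor the 22 heat shock proteins had a call.

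Secreted acute phase proteins were mostly higher as well. Of 26 such genes 20 had a positive fold change, 15 were separated upward (57.7% against 15.6%) and 4 were called, all higher (15.4% against 1.6%), with a list median of 0.79. Lcn2, an iron-sequestering protein of hepatocytes and neutrophils, was at 3.13, 21.0 and 10.8 CPM in the Het livers and 193, 186 and 165 CPM in the KO livers (log2 fold change 3.95 ± 0.65 SE, adjusted p = 0.0379). The Het livers differed several-fold among themselves and the KO livers were close to each other. Orm2, an acid glycoprotein, was at 11.8, 27.99 and 10.9 CPM in the Het livers and 113, 103 and 175 CPM in the KO livers (log2 fold change 2.95 ± 0.43 SE, adjusted p = 0.0283). Serpina3n, a protease inhibitor, was at 209, 259 and 212 CPM in the Het livers and 1502, 775 and 557 CPM in the KO livers (log2 fold change 2.06 ± 0.37 SE, adjusted p = 0.0375), and Itih3 at 937, 946 and 1104 CPM in the Het livers and 3353, 3115 and 2096 CPM in the KO livers (log2 fold change 1.52 ± 0.24 SE, adjusted p = 0.0294). The strongest responders of acute inflammation, Saa1 and Saa2, were separated but did not pass the test, with log2 fold changes of 1.58 ± 0.42 and 1.56 ± 0.38 and adjusted p of 0.0901 and 0.0771. In the fit of 12 livers 10 of the 26 were called higher. In 6 livers none was called without Het_F_126 or KO_F_112, and 1 without Het_F_111 or KO_F_108.

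The receptors and feedback genes of cytokine signaling changed in part. Of 71 genes of IL6, JAK and STAT3 signaling, 7 were called higher and 2 lower (9.86% and 2.82% of the list, against 1.6% and 1.05% of all genes), with a median of 0.04. Socs3, the feedback inhibitor that STAT3 induces, was at 8.59, 2.58 and 8.95 CPM in the Het livers and 97.3, 61.3 and 44.3 CPM in the KO livers (log2 fold change 3.32 ± 0.53 SE, adjusted p = 0.0339). Il1r1, the signaling receptor of interleukin 1, was at 25.5, 28.4 and 24.7 CPM in the Het livers and 161, 64.9 and 84.1 CPM in the KO livers (log2 fold change 1.98 ± 0.33 SE, adjusted p = 0.0333). Tnfrsf1a, the main TNF receptor, had a smaller rise (log2 fold change 0.96 ± 0.18 SE, adjusted p = 0.0403), and Stat3 itself did not pass the test (log2 fold change 1.104 ± 0.24 SE, adjusted p = 0.0602). The other rises were Csf2rb, Il17rb, Hmox1 and Il4ra, the last named after its values were seen, with log2 fold changes between 0.84 and 2.11. None of the 71 was called without Het_F_111, Het_F_126 or KO_F_112, and 2 or 3 without Het_F_115 or KO_F_108. The falls were Il15ra, a receptor subunit (log2 fold change -1.098 ± 0.22 SE, adjusted p = 0.0456), and Inhbe, a hepatocyte activin subunit (41.0, 33.9 and 53.3 CPM in Het against 0.594, 2.38 and 3.79 CPM in KO, log2 fold change -4.21 ± 0.62 SE, adjusted p = 0.0309). The 2 members with a called rise that hold TTCNNNGAA, the form of site STAT dimers bind, within 250 bases before the start are shown with the match in capitals, read 5′ to 3′ on the gene's strand from RefSeq (GRCm38.p6).
Socs3 (chr11:117969501-117969530, minus strand): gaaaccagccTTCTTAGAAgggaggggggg
Tnfrsf1a (chr6:125349473-125349502, plus strand): gcttccTTCCGTGAAattgacaacaggctt
The motif is a palindrome at its fixed letters and so reads the same on both strands, and it was found in 9 of the 61 genes of this list that matched the table, in 15 of 193 matched genes called higher (7.77%) and in 8.13% of all 27025 genes with a promoter sequence. Among 34 interferon-stimulated genes 26 had a negative fold change (median -0.44), and 1 was called, Usp18, a deconjugase of ISG15, which rose (log2 fold change 1.32 ± 0.23 SE, adjusted p = 0.0371). In males the median of this list was 0.615 and 14 members were called higher, where 5.17% of all genes were. A difference between the sexes passed the interaction test given below in 1 of the 34.

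Markers of recruited macrophages rose in part. Of 17 markers of monocytes and recruited macrophages 4 were called higher (23.5% against 1.6% of all genes): Gpnmb (log2 fold change 4.45 ± 0.51 SE, adjusted p = 0.0129), Chil3 (log2 fold change 3.66 ± 0.31 SE, adjusted p = 0.00595), Mmp12 (log2 fold change 2.78 ± 0.39 SE, adjusted p = 0.0230) and the integrin Itgam (log2 fold change 1.36 ± 0.26 SE, adjusted p = 0.0417). Gpnmb, a glycoprotein of lipid-loaded macrophages, was at 0.142, 0.0517 and 0.218 CPM in the Het livers and 6.47, 2.44 and 3.66 CPM in the KO livers. Chil3, a chitinase-like protein of alternatively activated macrophages, was at 0.114, 0.181 and 0.131 CPM in the Het livers and 2.94, 2.25 and 2.07 CPM in the KO livers. Both were low transcripts, and every KO liver was above every Het liver. Of the 17 markers, 11 had a positive and 6 a negative fold change. Upward separation was seen in 8 (47.1% against 15.6% of all genes) and downward separation in 3 (17.6%, near the 15.3% of all genes). With at least 10 reads in every liver, 9 were tested and 1 was called, with a median of 0.07. Leaving out KO_F_123 left 4 calls and leaving out any other liver left 1 or 2. The summed level of the 17 markers overlapped, from 89.7 to 134.7 CPM in Het and from 88.4 to 179 CPM in KO, and Ccr2, the defining monocyte receptor, was lower in KO without passing the test (log2 fold change -1.23 ± 0.46, adjusted p = 0.165). None of 12 Kupffer cell markers was called, with sums of 320.3 to 448 CPM in Het and 437 to 624 CPM in KO. Of 17 neutrophil and granule markers 9 were tested and 2 called (22.2% against 1.6% of all genes), Lcn2 and Prtn3, a granule protease with 4 counts in the Het livers together and 360 in the KO livers (106.6-fold, 95% interval 41.3 to 393 from counting error). Prtn3 passed the read filter through the KO livers alone, so its call and the share of 22.2% do not speak for the list. Lcn2 is also on the acute phase list. With at least 10 reads in every liver, 4 of the neutrophil and granule markers were tested and 1 was called, with a median of 0.74. S100a8 and S100a9, which neutrophils make in large amounts, were not called, with log2 fold changes of 0.83 ± 0.49 and 0.11 ± 0.38. All 17 T and NK cell markers and all 12 B and plasma cell markers had negative fold changes and none was called. These were low transcripts. The T and NK markers summed to 7.78 to 13.5 CPM in Het and 4.13 to 8.90 CPM in KO. The B and plasma cell markers summed to 10.8 to 57.3 CPM in Het, highest in Het_F_126, and 9.54 to 31.1 CPM in KO. With at least 10 reads in every liver, 2 of the T and NK and 4 of the B and plasma cell markers were tested. In whole liver, fewer cells of a type and less RNA per cell cannot be told apart.

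Genes of the sinusoidal wall were mostly lower. Of 17 markers of liver sinusoidal endothelium, the fenestrated lining of liver capillaries, 16 had a negative fold change, 11 were separated downward (64.7% against 15.3%) and 6 were called lower (35.3% against 1.05%). Dnase1l3, a secreted nuclease, was at 40.0, 40.1 and 28.4 CPM in the Het livers and 6.72, 11.5 and 11.6 CPM in the KO livers (log2 fold change -1.86 ± 0.25 SE, adjusted p = 0.0230). Fcgr2b, the Fc receptor that clears immune complexes there, was at 40.3, 29.2 and 32.4 CPM in the Het livers and 10.6, 11.7 and 12.4 CPM in the KO livers (log2 fold change -1.55 ± 0.17 SE, adjusted p = 0.0101), and Kdr, the VEGF receptor, at 85.2, 45.9 and 67.3 CPM in the Het livers and 21.9, 29.4 and 25.8 CPM in the KO livers (log2 fold change -1.36 ± 0.24 SE, adjusted p = 0.0371). The lectin Clec4g (log2 fold change -1.17 ± 0.16 SE, adjusted p = 0.0230), Ehd3 (log2 fold change -1.19 ± 0.19 SE, adjusted p = 0.0294) and Oit3 (log2 fold change -0.87 ± 0.14 SE, adjusted p = 0.0316) were the other calls. The defining scavenger receptor Stab2 overlapped between the groups, at 126.3, 87.2 and 98.6 CPM in the Het livers and 55.5, 114 and 82.2 CPM in the KO livers, and so did Lyve1 (log2 fold change -0.08 ± 0.69, adjusted p = 0.957). The summed level was 608 to 747 CPM in Het and 391, 661 and 394 CPM in KO. In KO_F_112 the sum held 217 CPM of Vwf, a marker of larger vessels that is named after its values were seen, against 9.30 to 49.6 CPM in the other female livers. Leaving out 1 liver left 4 calls (without Het_F_115 or KO_F_123), 2 (without KO_F_108), 1 (without Het_F_111 or Het_F_126) or none (without KO_F_112) lower.

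Stellate cells, the vitamin A storing pericytes of the liver, showed the same direction. Of 27 stellate cell and fibrosis genes 23 had a negative fold change, 12 were separated downward (44.4% against 15.3%) and 4 were called lower (14.8% against 1.05%), with none higher. Lrat, the enzyme that esterifies retinol for storage, was at 38.9, 25.7 and 35.0 CPM in the Het livers and 9.13, 5.92 and 6.64 CPM in the KO livers (log2 fold change -2.19 ± 0.23 SE, adjusted p = 0.0101). Reln, a matrix protein of quiescent stellate cells, was at 231, 167 and 206 CPM in the Het livers and 30.4, 45.2 and 52.1 CPM in the KO livers (log2 fold change -2.24 ± 0.24 SE, adjusted p = 0.0101). In both genes the KO livers were grouped well under the lowest Het liver. Ecm1 fell from a very even Het level, with 60.9, 62.2 and 60.9 CPM in the Het livers and 21.9, 25.7 and 22.4 CPM in the KO livers (log2 fold change -1.39 ± 0.13 SE, adjusted p = 0.00898), and Dcn, the proteoglycan decorin, changed least (log2 fold change -0.84 ± 0.14 SE, adjusted p = 0.0309). The collagen gene Col1a1 and the actin gene Acta2, which mark activated stellate cells, overlapped, with log2 fold changes of 0.04 ± 0.51 and -0.87 ± 0.58. Leaving out KO_F_112 left no call on this list and leaving out any other liver left 3 or 4. The summed level did not overlap, from 758 to 832 CPM in Het and from 314 to 424 CPM in KO. The summed hepatocyte markers were 82930 to 91760 CPM in Het and 91160 to 148500 CPM in KO, the highest being KO_F_112. The part of changed cell shares in the endothelial and stellate values was not tested.

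**Figure D3:**
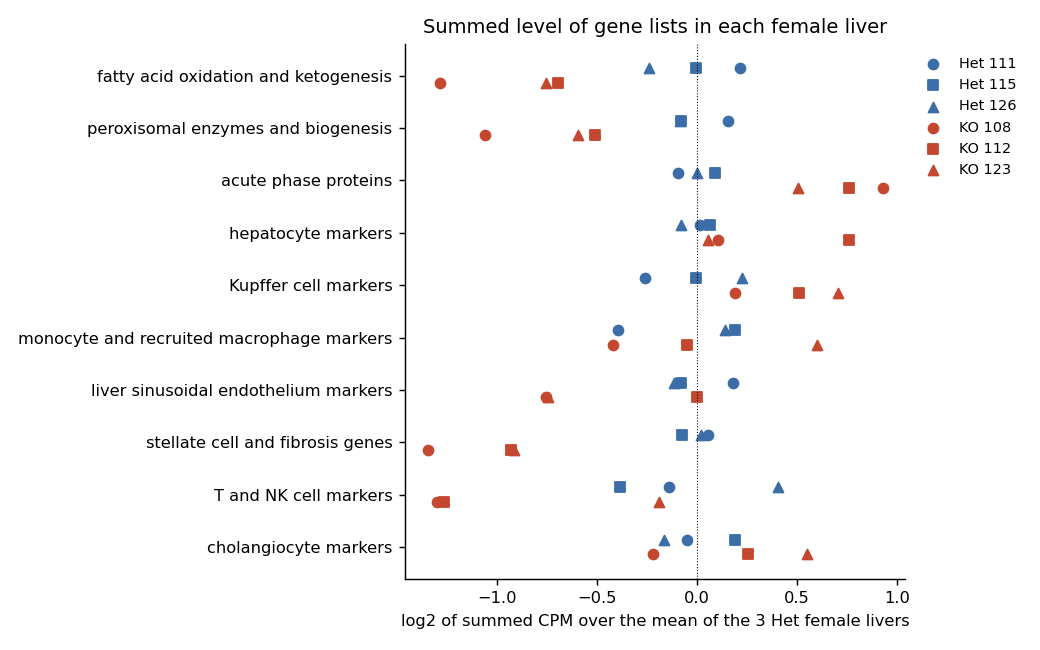
For each gene list on the y axis, the points give the log2 ratio of the summed CPM in 1 female liver to the mean of the 3 Het livers, in blue for Het and red for KO with a symbol for each mouse. All 3 KO livers lie under all Het livers for fatty acid oxidation, peroxisomal and stellate cell genes and above them for acute phase genes, while KO_F_112 lies among the Het livers for endothelial genes.

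Sex-biased liver genes were a further group, since the male and female patterns of hepatic expression follow growth hormone. Of 40 genes with higher expression in normal male liver, 6 were called lower in KO females (15.0% against 1.05%) and none higher, and the median was -0.98. None was called without KO_F_112 and 3 to 8 without any other single liver. Most of these belong to the major urinary proteins, a cluster of secreted pheromone carriers on chromosome 4. Mup3 was at 817, 886 and 914 CPM in the Het livers and 4.41, 16.6 and 23.1 CPM in the KO livers (log2 fold change -5.88 ± 0.63 SE, adjusted p = 0.0129), Mup11 at 99.0, 97.7 and 132 CPM in the Het livers and 2.78, 3.85 and 9.47 CPM in the KO livers (log2 fold change -4.34 ± 0.49 SE, adjusted p = 0.0159) and Mup16 at 45.7, 16.7 and 28.5 CPM in the Het livers and 0.406, 0.846 and 0.995 CPM in the KO livers (log2 fold change -5.23 ± 0.49 SE, adjusted p = 0.00898). In all 3 the groups did not overlap and KO_F_108 was the lowest. Mup12 also fell (log2 fold change -4.00 ± 0.73 SE, adjusted p = 0.0386). Mup15, which is outside that list, had 1029 counts in the Het livers together and 0 in the KO livers, at least 99.2-fold lower at a floor of 3 counts per library. It passed the read filter through the Het livers alone. Over all 22 Mup genes in the tables the sum was between 2049 and 2319 CPM in Het and at 111.8, 196 and 470.0 CPM in KO. Mup20 was not among the falls, at 59.6, 58.8 and 103 CPM in the Het livers and 50.4, 106 and 190.2 CPM in the KO livers (log2 fold change 0.65 ± 0.47 SE, adjusted p = 0.444). These genes are close copies, so the share of reads given to each one is uncertain. A 30-base stretch before the start of 3 of them is shown, read 5′ to 3′ on the gene's strand from RefSeq (GRCm38.p6), with the longest run shared by all 3 in capitals.
Mup3 (chr4:62087379-62087408, minus strand): tgaaAAAACATTCCACAAAGCCTGACtgag
Mup11 (chr4:60662482-60662511, minus strand): tgagAAAACATTCCACAAAGCCTGACagag
Mup15 (chr4:61439812-61439841, minus strand): tgagAAAACATTCCACAAAGCCTGACagag
The 250 bases before the start of Mup11 shared 68.8% of their 20-base words with those of Mup15 and 1.73% with those of Mup3.

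The other male-biased falls were Csad, the decarboxylase of taurine synthesis, at 116, 183 and 181 CPM in the Het livers and 44.02, 19.3 and 36.3 CPM in the KO livers (log2 fold change -2.27 ± 0.33 SE, adjusted p = 0.0274), and the cytochrome P450 gene Cyp2u1 (log2 fold change -1.79 ± 0.23 SE, adjusted p = 0.0177). Female-biased genes were split in direction in females, with 22 positive and 24 negative fold changes and a median of -0.10. Of these 46, 1 was called higher and 1 lower, 2.17% each against 1.6% and 1.05% of all genes. Sult1e1, the estrogen sulfotransferase that inactivates estrogens, rose most, at 2.08, 1.11 and 5.16 CPM in the Het livers and 164, 149.8 and 62.9 CPM in the KO livers (log2 fold change 5.46 ± 0.71 SE, adjusted p = 0.0262). Cyp2c38, a P450 of the Cyp2c cluster, fell at 152, 135 and 114 CPM in the Het livers and 35.3, 29.2 and 42.6 CPM in the KO livers (log2 fold change -1.91 ± 0.20 SE, adjusted p = 0.00898). Hsd17b6, a steroid dehydrogenase, fell too, at 265, 110.4 and 216 CPM in the Het livers and 6.44, 13.7 and 23.4 CPM in the KO livers (log2 fold change -3.76 ± 0.55 SE, adjusted p = 0.0294). The estrogen receptor gene Esr1 (log2 fold change 0.29 ± 0.24 SE, adjusted p = 0.488), Ghr (log2 fold change -1.15 ± 0.51 SE, adjusted p = 0.228) and Igf1 (log2 fold change -0.45 ± 0.24 SE, adjusted p = 0.306) did not pass the test. Cyp3a41a, a female-specific P450, spread widely among Het females, at 339, 1516 and 6.36 CPM in the Het livers and 1594, 1979 and 1634 CPM in the KO livers.

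**Figure D4:**
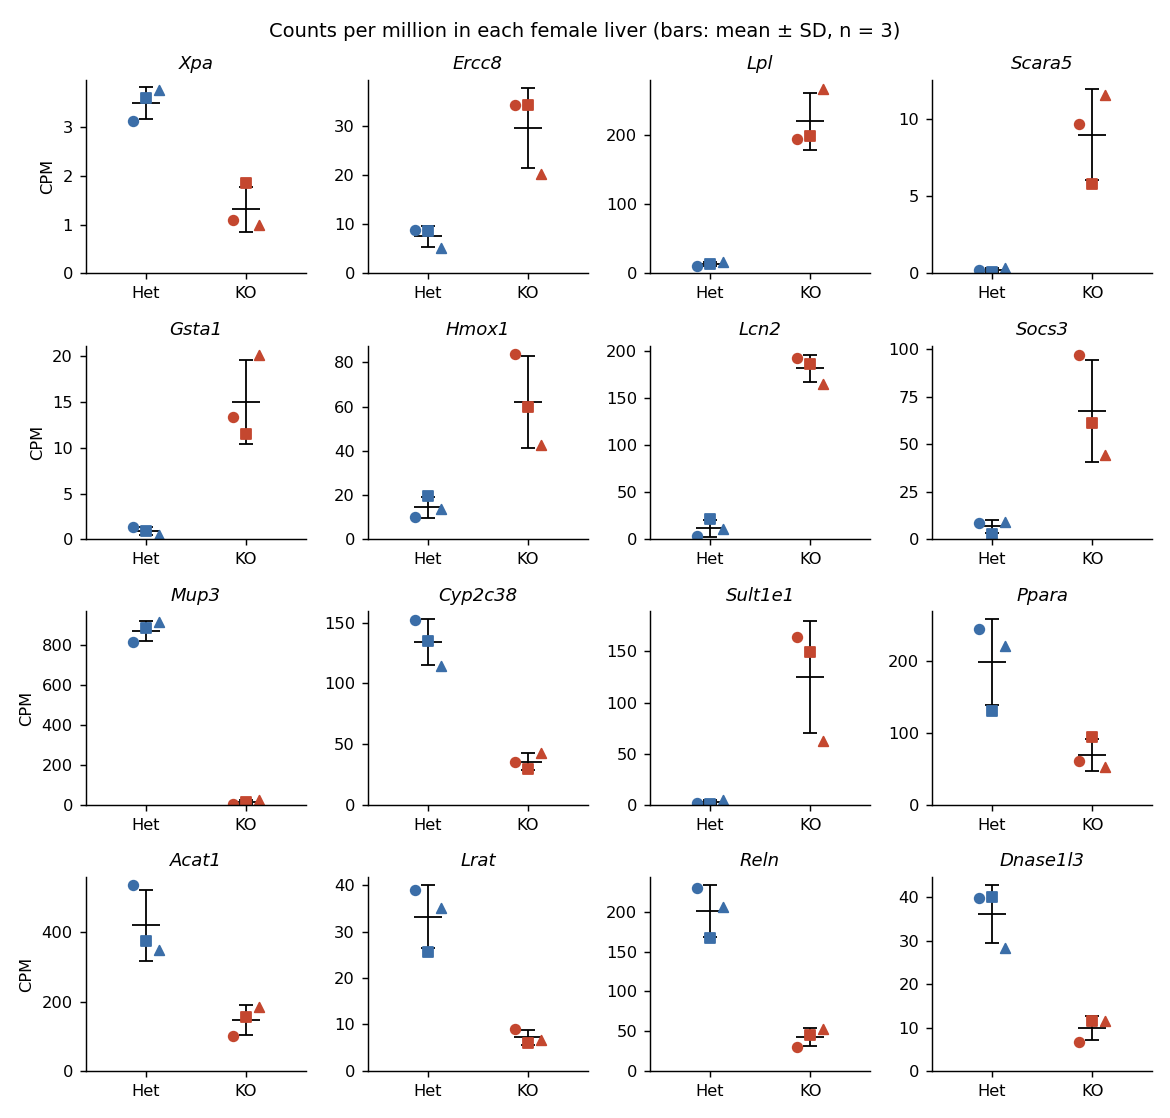
Each panel gives the CPM of 1 gene on the y axis, from 0, in the 3 Het (blue) and 3 KO (red) female livers, with a symbol for each mouse and a black bar for the mean ± SD (n = 3). The groups do not overlap in any of the 16 panels, and Mup3 in KO is at 4.41 to 23.1 CPM against 817 CPM or more in Het.

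Among the remaining lists, glucocorticoid-responsive genes and metallothioneins were positive in 18 of 20 (median 1.04), with Lcn2, Ddit4 and Sult1e1 called higher (15.0% against 1.6% of all genes). The lists share members, so a call can count on several. Lcn2 is also among the acute phase proteins and neutrophil markers, and Sult1e1 among the female-biased genes. Of 25 hepatocyte transcription factors 10 were separated downward (40.0% against 15.3%) and 1, Ppara, was called. Of 35 genes of hypoxia and glycolysis 26 were positive (median 0.38) and 2 were called higher (5.71% against 1.6%). Growth hormone and IGF1 genes were mixed, with 1 of 21 called higher (Socs3) and 1 lower (Fgf21), each 4.76% against 1.6% and 1.05% of all genes. Among 18 circadian clock genes Hlf was called lower (log2 fold change -1.16 ± 0.17 SE, adjusted p = 0.0247). None of 17 periportal, 35 cell cycle, 37 coagulation and complement, 21 iron handling or 31 gluconeogenesis, glycogen and fructose genes was called.

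Several single genes marked other functions. Afp, the fetal albumin-like protein, was at 1.02, 0.724 and 0.740 CPM in the Het livers and 22.8, 19.6 and 8.12 CPM in the KO livers (log2 fold change 4.26 ± 0.42 SE, adjusted p = 0.00898), and Igf2, a fetal growth factor, rose at a low level (log2 fold change 2.17 ± 0.44 SE, adjusted p = 0.0498). Slc2a1, the glucose transporter of most dividing and hypoxic cells, was at 9.62, 7.31 and 7.75 CPM in the Het livers and 25.0, 37.0 and 17.1 CPM in the KO livers (log2 fold change 1.67 ± 0.28 SE, adjusted p = 0.0332), and Pkm, a pyruvate kinase of glycolysis, rose less (log2 fold change 0.91 ± 0.17 SE, adjusted p = 0.0431). Of 20 pericentral genes 15 had a negative fold change (median -0.64). Rnf43, a Wnt target that limits Wnt receptors, fell (log2 fold change -1.82 ± 0.33 SE, adjusted p = 0.0417) and the ammonia transporter Rhbg rose (log2 fold change 1.45 ± 0.28 SE, adjusted p = 0.0440), while Glul, the defining glutamine synthetase, was lower without passing the test (log2 fold change -1.19 ± 0.47 SE, adjusted p = 0.183). In bile acid synthesis Cyp39a1 rose (log2 fold change 1.49 ± 0.28 SE, adjusted p = 0.0417) and Cyp46a1 fell (log2 fold change -2.47 ± 0.38 SE, adjusted p = 0.0280), and the export subunit gene Slc51b rose (log2 fold change 2.49 ± 0.39 SE, adjusted p = 0.0292). Among drug-metabolizing P450 genes Cyp3a13 rose (log2 fold change 1.36 ± 0.23 SE, adjusted p = 0.0333) and Cyp2c67 fell (log2 fold change -1.83 ± 0.27 SE, adjusted p = 0.0274). Acmsd, which steers tryptophan breakdown away from NAD, rose at 9.53, 14.8 and 11.3 CPM in the Het livers and 95.9, 65.1 and 39.5 CPM in the KO livers (log2 fold change 2.48 ± 0.34 SE, adjusted p = 0.0246). It was the single call among 49 urea cycle and amino acid genes, a share of 2.04%, near the 1.6% of all genes called higher.

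Several changes of small p or large size lay outside these lists. Ccdc120, a coiled-coil protein gene on the X chromosome, had the smallest p, with 1.02, 0.930 and 0.719 CPM in the Het livers and 18.8, 16.8 and 17.2 CPM in the KO livers (log2 fold change 4.23 ± 0.20 SE, adjusted p = 0.000956). Tes, which codes for a focal adhesion protein, was at 1.51, 1.27 and 1.55 CPM in the Het livers and 16.5, 17.8 and 11.8 CPM in the KO livers (log2 fold change 3.37 ± 0.23 SE, adjusted p = 0.00284), and Dnah1, a dynein heavy chain gene of cilia, at 0.199, 0.258 and 0.196 CPM in the Het livers and 11.3, 6.61 and 5.70 CPM in the KO livers (log2 fold change 4.86 ± 0.35 SE, adjusted p = 0.00333). These 3 genes were close to 0 or low in all Het livers and present in all KO livers. Gldn, gliomedin of myelinated nerve, had 2 counts in the Het livers together and 654 in the KO livers (387-fold, 95% interval 106.8 to 3205 from counting error). The calcium channel gene Cacna1b had 0 counts in Het and 242 in KO, at least 32.5-fold higher at the same floor. Gldn and Cacna1b passed the read filter through the KO livers alone, so they were tested only because they were high there. Bmper, a secreted regulator of BMP signaling, was at 1.39, 1.86 and 1.502 CPM in the Het livers and 105, 31.1 and 9.76 CPM in the KO livers (log2 fold change 4.90 ± 0.88 SE, adjusted p = 0.0454). Slc4a9, an anion exchanger gene, was at 6.01, 1.14 and 2.33 CPM in the Het livers and 319, 86.6 and 50.5 CPM in the KO livers (log2 fold change 5.57 ± 0.99 SE, adjusted p = 0.0440), with KO_F_108 far above the other KO livers. Scara5, a ferritin receptor gene, was at 0.199, 0.103 and 0.370 CPM in the Het livers and 9.66, 5.76 and 11.6 CPM in the KO livers (log2 fold change 5.001 ± 0.45 SE, adjusted p = 0.00835). Among the falls, Ltbp4, a TGF-β binding matrix protein gene, had 35.1, 36.2 and 35.7 CPM in the Het livers and 7.003, 10.2 and 11.2 CPM in the KO livers (log2 fold change -1.91 ± 0.20 SE, adjusted p = 0.00898), and the potassium channel gene Kcnk10 had 4.13, 1.63 and 4.55 CPM in the Het livers and 0, 0.0313 and 0.108 CPM in the KO livers (log2 fold change -5.08 ± 0.62 SE, adjusted p = 0.0117).

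Whether these changes belong to females was examined in the 3 KO and 3 Het males, in which 934 of 18083 genes were called higher (5.17%) and 782 lower (4.32%). The female and male comparisons share no liver. Of the 485 female calls 246 were also called in males, which is 50.7% of the female and 14.3% of the male calls, and 245 of these had the same sign. The exception was the predicted gene Gm6135, lower in females (-1.43 ± 0.26) and higher in males (1.91 ± 0.40). The other 239 were called in females and not in males. Among the 215 of these that were tested in males, 203 had the same sign there. A difference between the sexes was tested by the interaction of genotype and sex over 12 livers, which was called for 15 of 19355 genes (0.0775%), while 1794 genes reached 0.05 without adjustment. Of the 239 genes, Cyp2c38 alone had a called interaction (females minus males -2.86 ± 0.41, adjusted p = 0.0421). For the others a difference between the sexes was not shown.

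**Figure D5:**
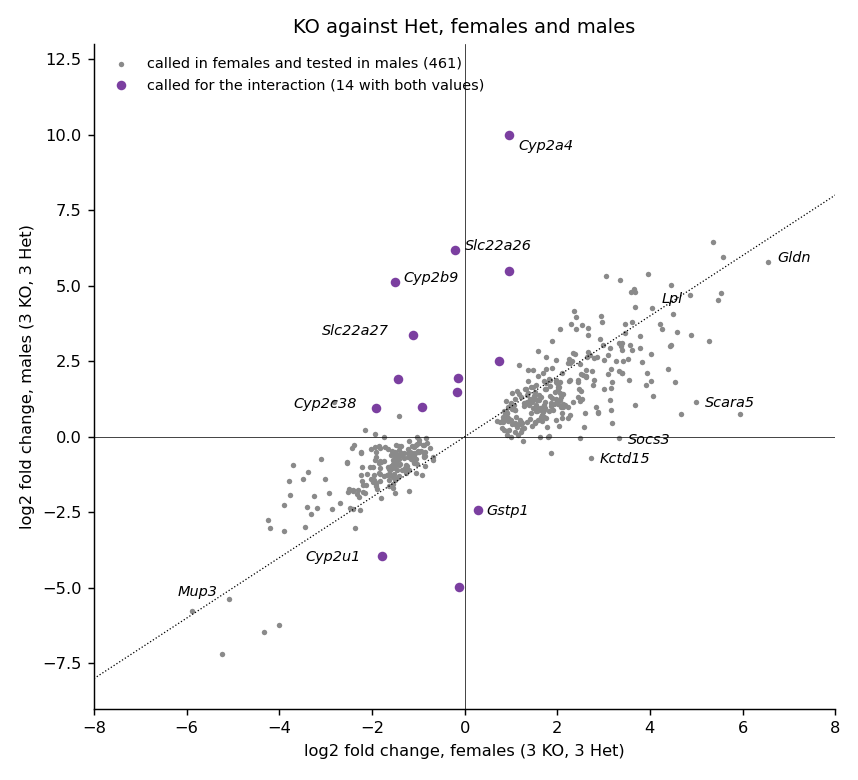
KO against Het log2 fold changes are on the x axis for females and on the y axis for males; grey points are the 461 genes called in females and tested in males, purple points 14 genes called for the interaction, and the dotted line marks equal change. Most grey points lie on the same side of 0 in both sexes, and Cyp2a4 (0.97 in females, 9.97 in males) lies far above the line.

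Among the 239, the genes nearest to a difference between the sexes by unadjusted p included several with named roles. Kctd15, a potassium channel tetramerization domain protein gene, was at 2.11, 2.46 and 2.94 CPM in the Het livers and 26.9, 17.9 and 5.92 CPM in the KO livers (log2 fold change 2.73 ± 0.51 SE, adjusted p = 0.0456), with a log2 fold change of -0.70 ± 0.23 in males (interaction adjusted p = 0.0837). Esm1, a proteoglycan gene of activated endothelium, rose by 1.87 ± 0.34 in females against -0.54 ± 0.28 in males (interaction adjusted p = 0.0813). For Socs3 the values were 3.32 ± 0.53 and -0.05 ± 0.57 (interaction adjusted p = 0.325). Nectin2 (0.92 ± 0.16 against 0.08 ± 0.12), Fam222a (4.67 ± 0.78 against 0.76 ± 0.31), Cobl (1.09 ± 0.17 against 0.15 ± 0.17) and Ahcyl (1.21 ± 0.22 against 0.15 ± 0.17) rose in females in the same way. The falls included Mug2, a protease inhibitor of plasma, at 964, 716 and 1060.0 CPM in the Het livers and 164, 208 and 392 CPM in the KO livers (log2 fold change -1.84 ± 0.35 SE, adjusted p = 0.0417) and -0.30 ± 0.25 in males. Hykk (-1.72 ± 0.24 against -0.34 ± 0.24), Dhrs7l (-1.47 ± 0.28 against -0.27 ± 0.14), Serpinb8 (-1.92 ± 0.23 against 0.10 ± 0.38) and the guanylate binding protein gene Gbp6 (-1.42 ± 0.27 against 0.69 ± 0.29) fell in females. The interaction adjusted p-values of these 9 genes were between 0.145 and 0.405, so a difference between the sexes was not shown for any of them.

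Of the 15 genes with a called interaction 6 were on the female-biased and 2 on the male-biased list. Cyp2a4, a female-biased steroid hydroxylase, was at 518, 315 and 556 CPM in the Het livers and 909.5, 1162 and 639.9 CPM in the KO livers (log2 fold change 0.97 ± 0.30 SE, adjusted p = 0.114) and rose by 9.97 ± 0.48 in males. The female-biased genes Cyp2b9, Slc22a26 and Slc22a27 had log2 fold changes of -1.51 ± 0.50, -0.20 ± 0.23 and -1.12 ± 0.39 in females, none of them called, against 5.12 ± 0.57, 6.19 ± 0.78 and 3.38 ± 0.46 in males. Over the list of 46 female-biased genes the median was -0.10 in females and 3.60 in males, and 22 were called higher in males. For male-biased genes the medians were -0.98 in females and -2.42 in males, where 27 of 40 were called lower. Cyp2u1 was called lower in both sexes, at -1.79 ± 0.23 and -3.93 ± 0.26, and Gstp1, a male-biased glutathione transferase, had log2 fold changes of 0.28 ± 0.30 in females and -2.42 ± 0.22 in males, the latter called. Cyp2c38 fell in females and was at 0.95 ± 0.34 in males (adjusted p = 0.135). Endothelial markers had 6 calls in females and none in males, with list medians of -0.64 and -0.37, and none of the 17 had a called interaction. Fatty acid oxidation genes had 5 lower calls in females and 7 in males (medians -0.79 and -0.41). Peroxisomal genes had 1 and 18 lower calls (medians -0.40 and -0.25), and 2 were called higher in males. Acute phase genes had 4 and 13 higher calls (medians 0.79 and 0.81). Over all genes, 5.17% were called higher and 4.32% lower in males, against 1.6% and 1.05% in females.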

How the data were processed

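RNA-seq was done on liver of 12 AAV9-CSA-treated mice, of which the 6 females are compared here. Per the labels and methods, libraries were made from TRIzol RNA with the TruSeq Stranded Total RNA kit after Ribo-Zero depletion, and nf-core/rnaseq was run; the submitters' processing notes name STAR (2.7.9a), Salmon (1.10.1) and the build GRCm39 (mm39). The authors deposited estimated counts per gene, which were not whole in 12.0% of values and were rounded, as well as length-scaled counts and TPM values that they scaled to 1000000 per library, used here for alternatives. The tables hold 57180 genes, and a gene was tested with at least 5 reads, scaled to the median library size, in 3 or more livers.

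Groups came from the labels. Counts were scaled by TMM and fitted with edgeR (4.0.16; R 4.3.3) by its quasi-likelihood F test (robust, prior count 2), and called at a Benjamini-Hochberg adjusted p under 0.05. The SE is the absolute log2 fold change divided by the square root of F. The interaction was fitted on 12 livers with 4 group means. DESeq2 (1.42.0) and limma (3.58.1, log2 of TPM plus 1 or 0.1) were alternatives, as were other scalings, filters, count tables, thresholds and leaving out each liver. The fits were tested on simulated data. Intervals of low counts cover counting error only, and totals of 31504723 or more per library limit what was detectable.

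The members and the 50 gene lists (1304 genes) were chosen with earlier results of these data known. Named are Xpa, Ercc8, the largest 10 rises and falls without overlap and with a mean of at least 1 CPM in 1 group (predicted genes left out), the 6 smallest p in each direction, all interaction calls, the 10 genes in each direction called in females and not in males with the smallest interaction p, and in each list up to 8 members of smallest p and the first 3, though not all are reported here. Gene positions are from GENCODE M39 on GRCm39, promoter sequences from RefSeq on GRCm38.p6. Separate mice are the replicates.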

Additional observations from a re-analysis of the deposited data

Results flagged for a closer look

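The difference in log2 fold change between the sexes (females minus males) passed the edgeR test of the interaction in 15 genes, of which 14 are given here. It was negative in the female-biased genes Cyp2a4 (-9.02), Cyp2b9 (-6.64), Slc22a26 (-6.40), Slc22a27 (-4.51) and Cyp2c38 (-2.86). Further negative differences were in the predicted genes Gm42375 (-4.60) and Gm6135 (-3.35), in the guanylate binding protein gene Gbp3 (-2.09), in Fam171b (-1.91), in Aph1b, a γ-secretase subunit gene (-1.77), and in the flavin monooxygenase gene Fmo4 (-1.64). It was positive in the predicted gene Gm4956 (4.83) and in Gstp1 (2.69) and Cyp2u1 (2.14), both on the male-biased list. In females 3 of the 15 were called, Cyp2c38, Gm6135 and Cyp2u1, all lower.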

How the results depend on the processing

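The 293 rises and 192 falls became 140 and 85 with TPM-scaled counts, 1124 and 935 by DESeq2, 1105 and 1085 in the fit of 12 livers, and 23 and 7 at an adjusted p under 0.01. There were 192 rises with at least 10 reads in every liver, and 310 and 354 falls by limma with 1 and 0.1 added to the TPM. Leaving out 1 liver gave 14 to 349 rises and 2 to 246 falls, the lowest without KO_F_112 and the highest without KO_F_123. The 15 interaction genes became 24 without robust estimation, 9 by the older quasi-likelihood method, 9 with length-scaled counts, 172 by DESeq2 and 48 by limma, and ranged from 4 to 90 (without KO_F_123) when 1 of the 12 livers was left out. No called gene named in the text reversed its direction. Counting each pair of a named gene and a setting once, a call was lost in 106 pairs under the other settings and in 344 pairs when 1 liver was left out. Among uncalled genes with log2 fold changes near 0, Col1a1 went to -0.0388 with library size alone and to -0.0103 and -0.0150 by limma with 1 and 0.1 added, Cpt1a to -0.00261 with upper quartile scaling and -0.0582 with library size alone, and Lyve1 to 0.0979 and 0.159 by limma with 1 and 0.1 added. Leaving out 1 liver moved Col1a1 between -0.340 and 0.544, Cpt1a between -0.149 and 0.366, Lyve1 between -0.464 and 1.11 and S100a9 between -0.144 and 0.604. The causes of these changes were not tested. Of the 485 calls 127 were called under all 14 other settings that kept the 6 females, 469 by DESeq2 and 475 in the fit of 12 livers. No paired analysis was possible because the mouse numbers are not shared between the groups and the labels do not give litters.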
